A study of Homo sapiens with 6 samples.

Results

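The 10 genes described here encode HuR (ELAVL1) and other proteins that bind AU-rich elements, short runs of A and U in the 3′ UTRs of mRNAs. They were chosen by gene symbol and not by a cut on their values, but with earlier results of these data known. All 10 were found among the 60668 genes of the table. MiaPaCa-2, an established human pancreatic ductal adenocarcinoma (PDAC) cell line, was kept for 48 h in low glucose (2.5 mM, 3 libraries) or in control medium (25 mM, 3 libraries), and strand-specific RNA-seq was performed on bulk RNA. No gene was deleted or silenced in either group, both groups come from a single cell line, and the medium is the difference that the titles name. One text field of the labels states 2.5 mM for every sample, controls included, whereas titles and the treatment tag set the controls apart. Only the columns of low glucose replicates 1 and 2 are identified by the labels. The names of all 6 columns fall into 2 runs of 3, by which the remaining 4 were assigned to a condition, and these libraries are named here by their number of reads.

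AU-rich elements mark many short-lived mRNAs, among them those of cytokines, early response transcription factors and growth factors. TTP (ZFP36) and its paralogs ZFP36L1 and ZFP36L2 bind such elements through paired zinc fingers and recruit the deadenylases that shorten the poly(A) tail, after which the mRNA is decapped or degraded from its 3′ end. HuR binds U-rich and AU-rich sites and mostly stabilizes its targets, and it is known mainly for its move from nucleus to cytoplasm under stress. The study is concerned with HuR and its target IDH1 in PDAC cells under glucose withdrawal, which is why the mRNAs of HuR and of its competitors were followed here. RNA-seq measured neither the amount nor the location of these proteins.

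The sequences below show the element itself, first in 4 members whose own 3′ UTRs carry the nonamer and then in 5 target mRNAs that rose. The sequences end with TIA1, the member that rose. Target mRNAs that fell, such as MCL1, are not shown, so the choice does not link the element with a rise. The stretches were read from the Gencode v44 transcript of each gene and are written 5′ to 3′ as DNA letters of the transcript strand. In the first 8 the nonamer TTATTTATT is in capitals, and it contains the pentamer ATTTA. In the last 2 only the pentamer is in capitals, because these 3′ UTRs lack the nonamer. The stretches lie in 3′ UTR exons at hg38 chr19:7961828-7961856 (minus strand) for ELAVL1, chr19:39409196-39409224 (plus strand) for ZFP36, chr14:68788077-68788105 (minus strand) for ZFP36L1 and chr2:43223448-43223476 (minus strand) for ZFP36L2. Those of the targets lie at chr6:43786286-43786314 (plus strand) for VEGFA, chr4:73742664-73742692 (plus strand) for CXCL8, chr4:74097590-74097618 (minus strand) for the first of 5 overlapping or separate sites in CXCL2, and chr4:74036773-74036801 (minus strand) for CXCL3. The pentamers lie at chr1:212620706-212620730 (plus strand) for ATF3 and chr2:70212592-70212616 (minus strand) for TIA1. They are site 3 of 3 in ATF3 and site 2 of 13 in TIA1, counted from the stop codon. The stretch of TIA1 also holds its site 3, which overlaps site 2 and is left in lower case.
ELAVL1: atttatgtatTTATTTATTgaagtgtgaa
ZFP36: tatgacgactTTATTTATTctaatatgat
ZFP36L1: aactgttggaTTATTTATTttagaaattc
ZFP36L2: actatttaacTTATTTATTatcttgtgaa
VEGFA: ttgttatcatTTATTTATTggtgctactg
CXCL8: atgtaaagtaTTATTTATTtgaatctaca
CXCL2: agtcttctatTTATTTATTtatttattta
CXCL3: atgtcagttgTTATTTATTcaaattatct
ATF3: aatattacttATTTAtcctagtatt
TIA1: gatacaatgtATTTAtttaaaagat

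All 10 members carried at least 1 ATTTA in the 3′ UTR of the transcript chosen for them, against 67.5% of the 19454 protein-coding genes with an annotated 3′ UTR. Letters were searched on the transcript strand only. The nonamer was present in 4 of 10, namely ELAVL1 and the 3 members of the ZFP36 family, against 8.46% of protein-coding genes. These shares are not matched for length, as the median 3′ UTR was 1919.5 bp for the members and 1066 bp for protein-coding genes. The 3′ UTR of ELAVL1 is 4910 bp long and holds 13 pentamers and 1 nonamer, and that of TIA1 holds 13 pentamers in 3275 bp without a nonamer. The shortest 3′ UTR, that of ZFP36, packs 5 pentamers and 1 nonamer into 708 bp. KHSRP has 1 pentamer in 1922 bp, the fewest of the 10. A match of letters is a description and does not show that a protein binds there.

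The markers of the line were checked first. KRT8, KRT18 and KRT19, keratins of simple epithelia, and VIM, the mesenchymal intermediate filament, were abundant, with a mean normalized count of 1972 to 80980 in each condition. The keratins fell under low glucose (log2 fold changes of −1.01, −0.74 and −0.83) and VIM rose (0.42, limma adjusted p = 0.00819). The call of VIM was lost under quantile normalization (adjusted p = 0.206), without the control library of 9741183 reads (0.0680) and without each of the low-glucose libraries (0.0545 to 0.0841). EPCAM and CDH1, markers of epithelial cells, and CDKN2A had at most 3 reads in any library, so the epithelial identity rests on the keratins. PTPRC (immune cells), DCN (fibroblasts), PECAM1 (endothelium), ALB (liver), PRSS1 (acinar cells) and INS (endocrine cells) were likewise too low to be tested. CD68 and COL1A1 had 0 to 15 reads per library. The control libraries held 9741183 to 10190154 reads on genes and the low-glucose libraries 10595408 to 13733477. Values are normalized counts, that is, reads divided by 1 size factor per library, and fold changes are on the log2(value + 1) scale.

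Under low glucose 4 of the 10 members fell, 1 rose and 5 did not pass the test (limma, two-sided, Benjamini-Hochberg adjustment over 21101 genes, threshold 0.05). Of all genes tested, 30.9% passed, 14.7% as higher and 16.2% as lower, and among the 13769 tested genes with a mean normalized count of at least 20, as all members have, 42.7% passed. A count of 5 of 10 members is thus near the share among genes of such abundance. The members that fell were HuR and the decay factors KHSRP and HNRNPD, together with CELF1, and the member that rose was TIA1. Neither ZFP36, nor ZFP36L1, nor ZFP36L2 passed. The median log2 fold change of the 10 was −0.21, beside 0.05 for all genes tested and −0.02 for those with a mean of at least 20. With 3 libraries against 3, the smallest p of an exact two-sided permutation test is 0.1. It was reached by the 8 of 10 members whose libraries did not overlap between the conditions, as was the case for 43.9% of all genes tested. That share includes genes of lower abundance, and it was not computed for those with a mean of at least 20. With edgeR on the recovered reads 5 members passed, 4 lower and 1 higher, where 42.8% of the genes it tested passed (20.9% higher, 21.9% lower). With DESeq2 6 members passed, YBX1 being the one added as lower, where 31.5% of genes passed (13.8% higher, 17.7% lower).

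**Figure D1:**
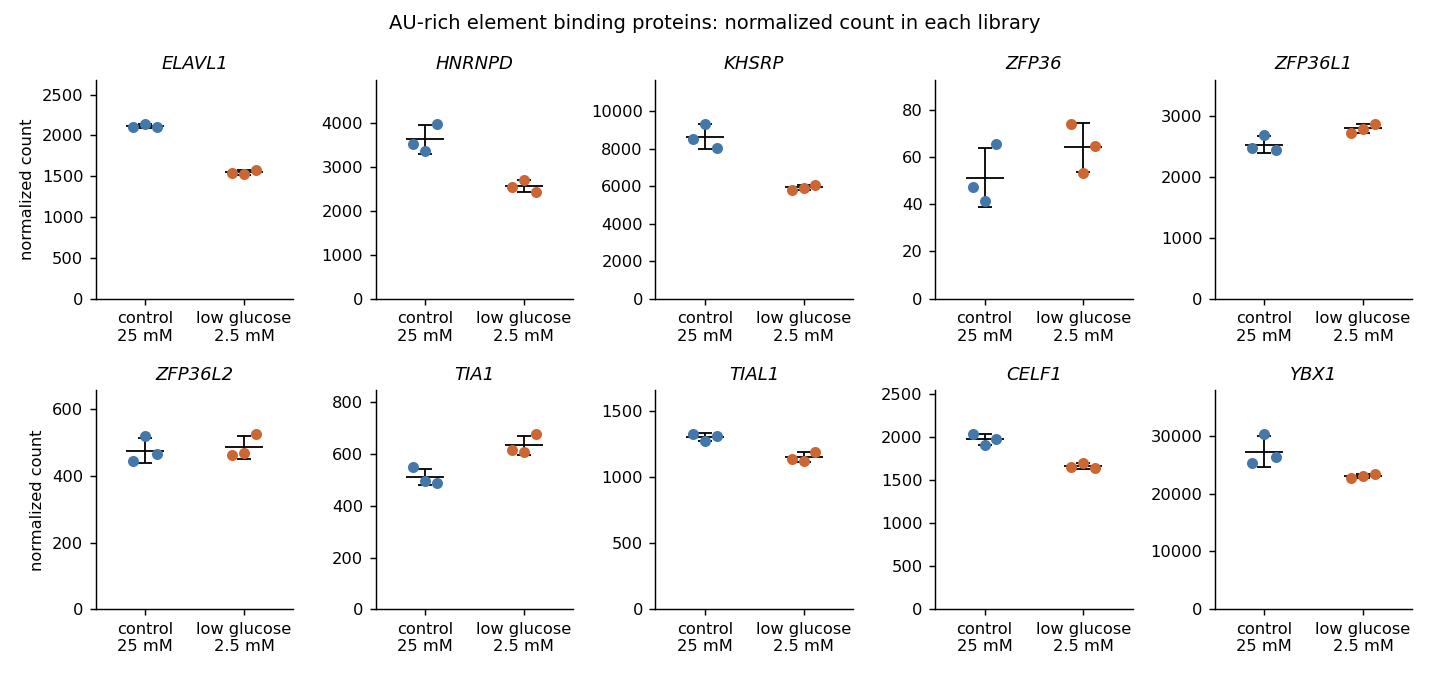
Normalized counts (y axes, from 0) of the 10 members in each of the 3 control and 3 low-glucose libraries. Points are libraries and bars are the mean ± SD of 3 libraries. ELAVL1, HNRNPD and KHSRP lie lower in every low-glucose library than in any control library, TIA1 lies higher in every one, and the points of ZFP36 and ZFP36L2 overlap.

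HuR mRNA was lower in low glucose. ELAVL1 (ENSG00000066044.15, hg38 chr19:7958573-8005659, minus strand) had normalized counts of 2097, 2146 and 2100 in the control libraries and of 1534, 1530 and 1580 in the low-glucose libraries. The 3 controls lay within 50 counts of each other, as did the 3 low-glucose libraries, and the groups were far apart. The mean was 2114 ± 27.0 in control and 1548 ± 27.6 in low glucose (SD, n = 3 each), which is 26.8% lower. The log2 fold change was −0.45 with an SE of 0.0701 and a 95% confidence interval of −0.60 to −0.30 (limma adjusted p = 0.000222). Under every alternative scaling, filter, test and left-out library it stayed between −0.46 and −0.24 with an adjusted p of at most 0.0199. In a ranking of all tested genes by log2 fold change, ELAVL1 was at percentile 15.6, so its fall was moderate for this comparison. An unnamed gene on the other strand shares 528 bp of its exons and had 13 to 36 reads per library, against 1549 to 2085 for ELAVL1. In bulk RNA, less of a transcript per cell and fewer cells that hold it cannot be told apart.

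The genes whose profile over the 6 libraries lay closest to that of ELAVL1 were RUVBL2, a AAA+ ATPase of chromatin remodelling and R2TP chaperone complexes, UAP1, an enzyme of UDP-N-acetylglucosamine synthesis, and SMG8, a regulator of the nonsense-mediated decay kinase SMG1. Likeness was the root mean square difference in log2(value + 1) after centring each gene, among the 10149 genes whose mean normalized count reached 100. It was 0.0166 for RUVBL2, 0.0182 for UAP1 and 0.0224 for SMG8, and their own log2 fold changes were −0.46, −0.42 and −0.47. For ZFP36 the closest were LAGE3, TNFRSF12A and FAM229A, at 0.0667, 0.0672 and 0.0861.

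Both classical decay-promoting members outside the ZFP36 family fell as well. KHSRP (KSRP, ENSG00000088247.17, chr19:6413102-6424811, minus strand), a KH-domain protein that recruits the exosome and also takes part in microRNA maturation, had 8537, 9341 and 8012 normalized counts in control and 5811, 5909 and 6077 in low glucose. Its lowest control lay well above its highest low-glucose library. The mean went from 8630 ± 670 to 5932 ± 134, a ratio of 0.687 (log2 fold change −0.54, SE 0.0800, limma adjusted p = 0.000152). HNRNPD (AUF1, ENSG00000138668.19, chr4:82352498-82374503, minus strand), whose protein isoforms can destabilize or stabilize their targets, had 3519, 3362 and 3980 in control and 2549, 2708 and 2418 in low glucose. The groups did not overlap, and the spread in control was the larger (3620 ± 321 against 2558 ± 145). Its log2 fold change was −0.50 with an SE of 0.0826 (limma adjusted p = 0.000365). Like ELAVL1, both kept a negative log2 fold change and an adjusted p of at most 0.0324 under every alternative.

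The ZFP36 family did not pass the test in either direction. ZFP36 (TTP, ENSG00000128016.7, chr19:39406847-39409412, plus strand), an immediate early gene, was the least abundant member, with 47.1, 41.2 and 65.3 normalized counts in control and 74.1, 53.3 and 64.4 in low glucose. These rest on 37 to 85 reads per library, and the groups overlapped. The log2 fold change was 0.33 with an SE of 0.217 and a 95% confidence interval of −0.14 to 0.79 (limma adjusted p = 0.277), an interval that at this depth holds both no change and a rise of over 1.5 times. It was 0.14 under quantile normalization, 0.19 without the control library of 10126218 reads, 0.22 without low glucose replicate 1 and 0.51 without the control library of 10190154 reads, and passed under no alternative. ZFP36L1 (ENSG00000185650.9, chr14:68787660-68796253, minus strand) had 2470, 2675 and 2430 in control and 2717, 2785 and 2869 in low glucose. Each low-glucose library was above each control library, and the means were 2525 ± 132 and 2790 ± 76.2, but the test was not passed. The log2 fold change was 0.14 with an SE of 0.0734 and a 95% confidence interval of −0.01 to 0.30 (limma adjusted p = 0.153). Scaling by library size put it past the threshold (0.23, adjusted p = 0.0232), as did quantile normalization (0.33, adjusted p = 0.00237) and leaving out the control library of 10126218 reads (0.19, adjusted p = 0.0154).

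ZFP36L2 (ENSG00000152518.8, chr2:43222402-43226606, minus strand) had 443, 518 and 465 normalized counts in control and 463, 467 and 524 in low glucose, and the groups overlapped throughout. Its log2 fold change was 0.03 with a 95% confidence interval of −0.17 to 0.23 (limma adjusted p = 0.853), and its sign turned without the control library of 9741183 reads (−0.02) and without the low-glucose library of 13733477 reads (−0.03). A gene on the other strand shares 22.4% of its exon length and had 75 to 143 reads per library, and whether the authors' counting used strand is not given in the sources used here. Of the summed RPKM of the 3 family members, ZFP36L1 made up 71.6% ± 1.23 in control and 72.5% ± 1.05 in low glucose, ZFP36L2 23.6% ± 0.801 and 22.0% ± 0.806, and ZFP36 4.78% ± 1.29 and 5.44% ± 0.917.

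TIA1 and its relative TIAL1 silence the translation of AU-rich mRNAs and assemble stress granules, and of this pair TIA1 rose and TIAL1 did not pass the test. TIA1 (ENSG00000116001.16, chr2:70209444-70248660, minus strand) had 547, 494 and 489 normalized counts in control and 615, 606 and 675 in low glucose. All low-glucose libraries were higher, with means of 510 ± 32.3 and 632 ± 37.8. It was the only member that rose (log2 fold change 0.31, SE 0.0880, limma adjusted p = 0.0153). Without low glucose replicate 1 its adjusted p was 0.0508, and without the low-glucose library of 13733477 reads 0.0916. The neighbouring gene C2orf42 shares 211 bp of exon on the same strand and had 76 to 180 reads per library, with a log2 fold change of 0.48.

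TIAL1 (ENSG00000151923.17, chr10:119571802-119597029, minus strand) had 1326, 1274 and 1316 in control and 1135, 1125 and 1195 in low glucose. Every low-glucose library was below every control library, and the test was not passed (log2 fold change −0.18, SE 0.0733, limma adjusted p = 0.0760). Without the control library of 10126218 reads it was passed (adjusted p = 0.0234), whereas the log2 fold change was −0.10 with scaling by library size (adjusted p = 0.336) and −0.0061 with quantile normalization (adjusted p = 0.964). For each 100 TIAL1 reads there were 39.1 ± 2.06 TIA1 reads in control and 54.8 ± 1.46 in low glucose. This ratio within a library does not depend on scaling, and it was 1.40 times higher in low glucose with no overlap between the groups.

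CELF1 and YBX1, the members with the widest range of other roles, both lay lower. CELF1 (ENSG00000149187.18, chr11:47465933-47565569, minus strand), which binds GU-rich elements and promotes decay and alternative splicing, had 2037, 1908 and 1987 in control and 1652, 1707 and 1643 in low glucose. The groups did not overlap, and it fell by 0.25 on the log2 scale (SE 0.0715, limma adjusted p = 0.0171). This call was lost under scaling by library size (−0.16, adjusted p = 0.0964), under quantile normalization (−0.02, adjusted p = 0.842) and without the control library of 9741183 reads (adjusted p = 0.0787) or any of the 3 low-glucose libraries (0.0585 to 0.0790). YBX1 (ENSG00000065978.19, chr1:42682418-42703805, plus strand), an abundant cold-shock domain protein that packages mRNA, had 25223, 30242 and 26244 in control and 22746, 23034 and 23425 in low glucose. All low-glucose libraries were lower, but the control library of 10126218 reads lay far above the other controls and the test was not passed (log2 fold change −0.24, SE 0.0942, limma adjusted p = 0.0726). Without that library the log2 fold change was −0.16 with an adjusted p of 0.0248. When the control library of 10190154 reads was left out instead, it was −0.26 with an adjusted p of 0.0338. The 10 YBX1 pseudogenes in the table together had 123 to 155 reads per library, at most 0.596% of the reads of YBX1.

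**Figure D2:**
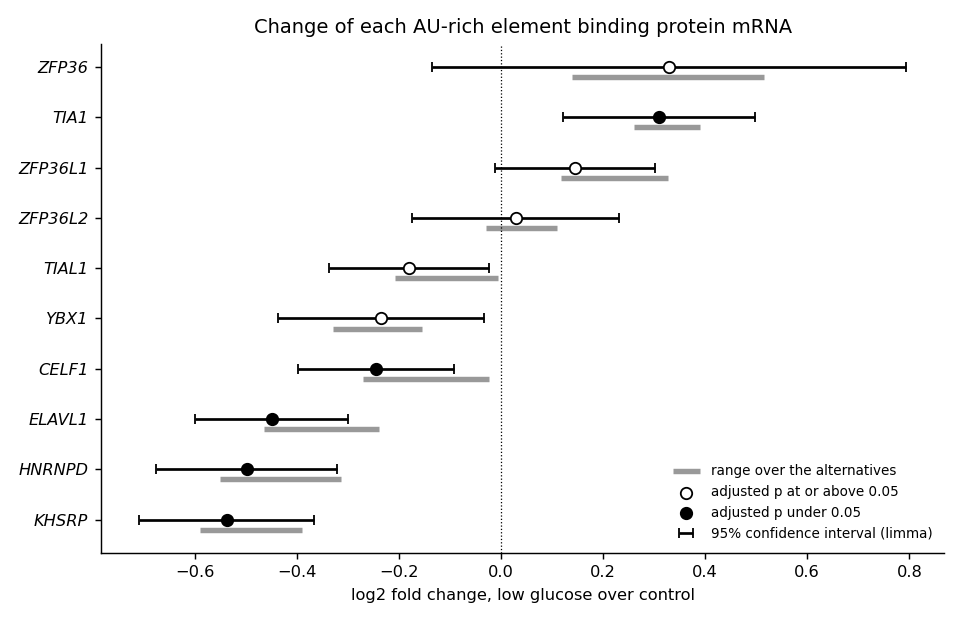
Log2 fold change of each member in low glucose against control (x axis, log2 of normalized count + 1), with its 95% confidence interval from limma and, as a grey bar, its range over the alternative scalings, filters, tests and left-out libraries. Filled points passed an adjusted p of 0.05. KHSRP, HNRNPD and ELAVL1 lie between −0.54 and −0.45, CELF1 at −0.25 and TIA1 at 0.31, and the interval of ZFP36 is the widest.

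Counted by library rather than by test, these 8 members were 6 lower and 2 higher. Among all genes tested 21.8% did not overlap as lower and 22.1% as higher. The 6 lower members were ELAVL1, HNRNPD, KHSRP, TIAL1, CELF1 and YBX1, and the 2 higher ones were ZFP36L1 and TIA1.

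Because members with opposing roles compete for like sites, the reads of some members were also set against each other within each library, which no scaling can move. These pairs were chosen after the values had been seen and are given as a description. There were 83.9 ± 3.25 ELAVL1 reads per 100 ZFP36L1 reads in control and 55.5 ± 0.851 in low glucose, a ratio of 0.662. Per 100 KHSRP reads there were 24.6 ± 1.62 ELAVL1 reads in control and 26.1 ± 0.269 in low glucose, and per 100 HNRNPD reads 58.7 ± 5.58 and 60.7 ± 4.43. HuR mRNA thus lay lower relative to ZFP36L1 in every low-glucose library, whereas relative to KHSRP and HNRNPD the groups overlapped. ZFP36L1 reads per 100 KHSRP reads went from 29.3 ± 0.904 to 47.0 ± 0.245, 1.61 times as many. Of 12 such ratios computed, 10 did not overlap between the conditions. Most of the 12 have ELAVL1 as numerator and the others reuse the same members, so they are not separate results. The share among pairs of other genes was not computed, and of single genes tested 43.9% did not overlap.

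Levels of different genes were compared as RPKM, the usual unit that divides reads by the summed exon length of the gene and by the reads of the library. In control, YBX1 was highest (726 ± 56.4), followed by KHSRP (151 ± 8.99), HNRNPD (46.8 ± 4.85), ZFP36L1 (35.4 ± 1.14) and ELAVL1 (27.5 ± 0.191). CELF1 (17.0 ± 0.862), TIAL1 (16.1 ± 0.646), ZFP36L2 (11.7 ± 0.732), TIA1 (7.0 ± 0.514) and ZFP36 (2.35 ± 0.609) followed. CELF1 and TIAL1 overlapped in both conditions, and for all other neighbours in the order the ranges over 3 libraries did not overlap. In low glucose HNRNPD (35.0 ± 1.88) and ZFP36L1 (41.4 ± 1.19) changed places, and the rest of the order was as in control. HuR itself stood at 21.3 ± 0.433 RPKM in low glucose. The order depends in part on the length used. Divided by the length of the chosen transcript, TIAL1 (30.9) stood above CELF1 (22.0) in control, and in low glucose TIAL1 (28.8) stood above ELAVL1 (24.5) and TIA1 (13.1) above ZFP36L2 (12.6).

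**Figure D3:**
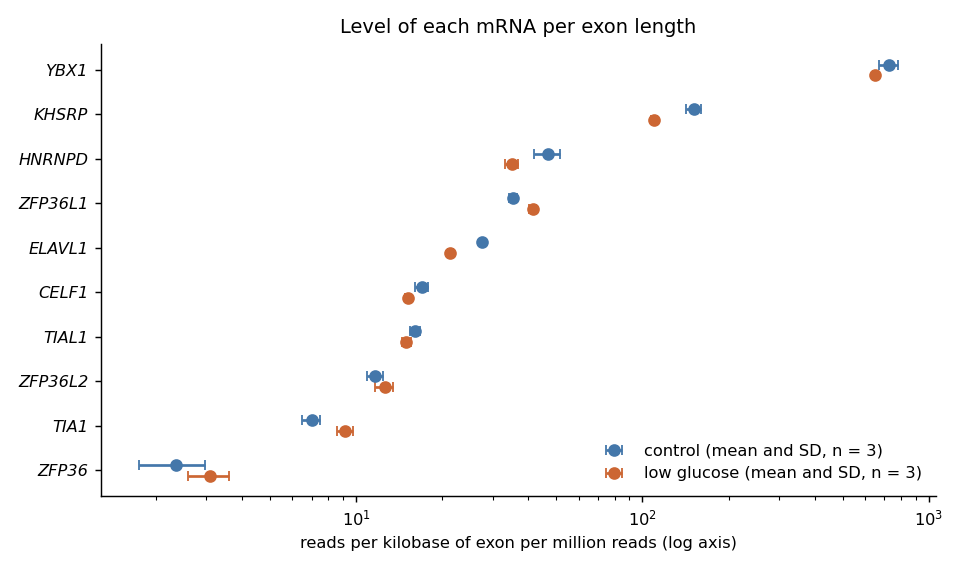
RPKM of the 10 members (x axis, log scale) in control and low glucose, with points for the mean and bars for the SD of 3 libraries. YBX1 lies highest and ZFP36 lowest in both conditions, and HNRNPD and ZFP36L1 change places.

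The members act with other RNA-binding proteins and with the decay machinery, and 9 lists of such genes were followed in the same fit. The lists were drawn up with earlier results of these data known. Shares called are to be read against 30.9% of all genes tested and 42.7% of those with a mean of at least 20. Of 26 paralogs and further binders of AU-rich or U-rich RNA, 21 could be tested and 9 fell (42.9%, no more than among genes of a mean of at least 20), with a median log2 fold change of −0.13. None rose with limma, edgeR or DESeq2, and 1 was higher at an unadjusted limma p under 0.05. Scaling by library size or by quantiles, or leaving out the control library of 10126218 reads, put 1 past the threshold as higher. The largest falls were in HNRNPAB (from 9583 ± 501 to 4791 ± 168 normalized counts, limma adjusted p = 4.60e-07), PTBP1 (−0.88), a pyrimidine-tract binding splicing repressor, and NCL (−0.85), nucleolin. The 3 neuronal paralogs of HuR were nearly silent. ELAVL2 had no read in any library, ELAVL4 had at most 1, and ELAVL3 had 3 to 8.

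In the machinery downstream of the ZFP36 family and KSRP, more factors fell than rose. Of 20 deadenylation factors, 7 fell and 3 rose (median −0.15), and the 50% called is near the 42.7% of genes with a mean of at least 20. The falls included the CCR4-NOT subunits CNOT9 (−0.54), CNOT7 (−0.48) and CNOT6 (−0.46), the last 2 being catalytic. BTG1, an antiproliferative protein that binds the deadenylase, rose from 172 ± 36.4 to 391 ± 33.0 normalized counts (log2 fold change 1.20, SE 0.136, limma adjusted p = 1.56e-05). PAN2 (0.50) and CNOT2 (0.31) rose too. Of 20 factors of decapping and of decay from the 5′ end, 11 fell (55.0% of the list) and none rose with limma (median −0.29), and 1 was higher at an unadjusted p under 0.05, 1 with edgeR and 0 with DESeq2. Also, 1 was called higher with scaling by library size or by quantiles, with at least 10 reads in every library, or without the control library of 10126218 reads. The falls were led by LSM6 (−0.74), LSM4 (−0.62) and the decapping enhancer EDC3 (−0.59). Of 16 subunits and partners of the exosome, 7 fell, among them EXOSC9 (−0.72), EXOSC2 (−0.53) and EXOSC7 (−0.50), and 1 rose, EXOSC8 (0.40), with a median of −0.17 and 50% called, again near the share of such genes. LSM6 rests on 75 to 176 reads per library. Its call was lost without the control library of 9741183 reads (adjusted p = 0.0550), that of 10190154 reads (0.0505), low glucose replicate 1 (0.0828) or the low-glucose library of 13733477 reads (0.0592). The calls of PAN2 (0.0670) and CNOT2 (0.106) were lost without the library of 13733477 reads, and those of CNOT2 (0.146) and EXOSC8 (0.0535) without low glucose replicate 2. EXOSC8 also missed the threshold without the control library of 9741183 reads (0.0506), and EXOSC7 without low glucose replicate 1 (0.0546). The counts of factors called depended on which library was left out. They were 6 to 11 for deadenylation (10 with all libraries), 5 to 15 for decapping (11) and 4 to 9 for the exosome (8).

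Of 20 factors that move or modify HuR, 11 fell and 2 rose (65.0% called, median −0.24). The number called was 9 to 13 over the alternatives on all libraries and 10 to 14 with 1 library left out. Under quantile normalization 7 fell and 2 rose, with a median of −0.06 beside −0.03 for all genes. PARP1, which modifies HuR with poly(ADP-ribose), fell from 5509 ± 185 to 3143 ± 89.6 normalized counts (log2 fold change −0.81, limma adjusted p = 1.80e-06). ANP32A, a ligand of HuR in nuclear export, and the kinase CDK1 both fell by 0.68. HDAC5 (0.51) and IKBKB (0.39) rose. Of 17 kinases, phosphatases and partners that act on TTP and KSRP, 11 fell (64.7%), with the lowest median of the 9 lists (−0.40), and none rose with limma, edgeR or DESeq2. At an unadjusted limma p under 0.05 none was higher in the main test. At that level 2 were higher with scaling by library size, and 1 without the control library of 10190154 reads. The adaptors YWHAQ (−0.68) and YWHAE (−0.56), which bind phosphorylated TTP, and PPP2CA (−0.58), a catalytic subunit of the phosphatase PP2A, fell most. Of 15 stress granule proteins other than TIA1 and TIAL1, 7 fell and 3 rose (66.7% called, median −0.16), with G3BP1, the core scaffold, at −0.73, UBAP2L at −0.71 and PRRC2C at −0.66 against ZFAND1 at 0.52 and ATXN2 and ATXN2L at 0.30 each. Without low glucose replicate 1 the adjusted p of ZFAND1 was 0.0567 and that of ATXN2 0.0672, without replicate 2 that of ATXN2 was 0.0706, and without the library of 13733477 reads that of ZFAND1 was 0.0570. MAPK14, a kinase of the stress response, is on both of the first lists.

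Of 30 reported HuR targets, 29 could be tested, 8 rose and 7 fell (51.7% called, beside 42.7% of genes with a mean of at least 20). The median log2 fold change was 0.05 for the list and 0.05 for all genes tested. It was 0.16 against −0.03 with quantile normalization, 0.09 against 0.02 with edgeR and −0.02 against 0.05 without the control library of 10190154 reads. IDH1, the NADPH-producing isocitrate dehydrogenase of the cytosol, had 608, 504 and 540 normalized counts in control and 1503, 1328 and 1323 in low glucose. The groups lay far apart, and IDH1 rose by 1.33 on the log2 scale (SE 0.0908, limma adjusted p = 1.80e-07). The chosen 3′ UTR of IDH1 (850 bp) holds no ATTTA, so it is not among the mRNAs with the elements searched here. VEGFA (1.54) and CDKN1A (0.94), a cyclin-dependent kinase inhibitor, rose too, whereas the cyclins CCNA2 (−1.24) and CCND1 (−0.80) and NCL (−0.85) fell. An unnamed gene transcribed from the opposite strand overlaps 188 bp of VEGFA exons and had the same log2 fold change, 1.54.

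Of 32 mRNAs reported as targets of TTP or its family, 27 could be tested, 17 rose, 2 fell and the median log2 fold change was 0.65. The 17 are 63.0% of those tested. Of all genes tested 14.7% were higher, and of the 13769 with a mean of at least 20, 2573 were higher. ATF3, a stress-induced transcription factor, had 53.8, 33.4 and 78.1 normalized counts in control and 397, 333 and 358 in low glucose. It lay several times higher in every low-glucose library (log2 fold change 2.77, SE 0.223, limma adjusted p = 6.92e-07). The neutrophil chemokines CXCL3 (2.15) and CXCL2 (1.97) followed. CXCL8, chosen after its value was seen because of its nonamer above, rose from 885 ± 74.1 to 2002 ± 108 (1.18, limma adjusted p = 2.38e-07). Of the falls, MCL1, an anti-apoptotic BCL2 relative, fell by 0.42. PTGS2, CSF2, IL6, CCL2 and HMGA2 were too low to be tested. VEGFA, MYC, MCL1, DUSP1 and PTGS2 are on both target lists.

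**Figure D4:**
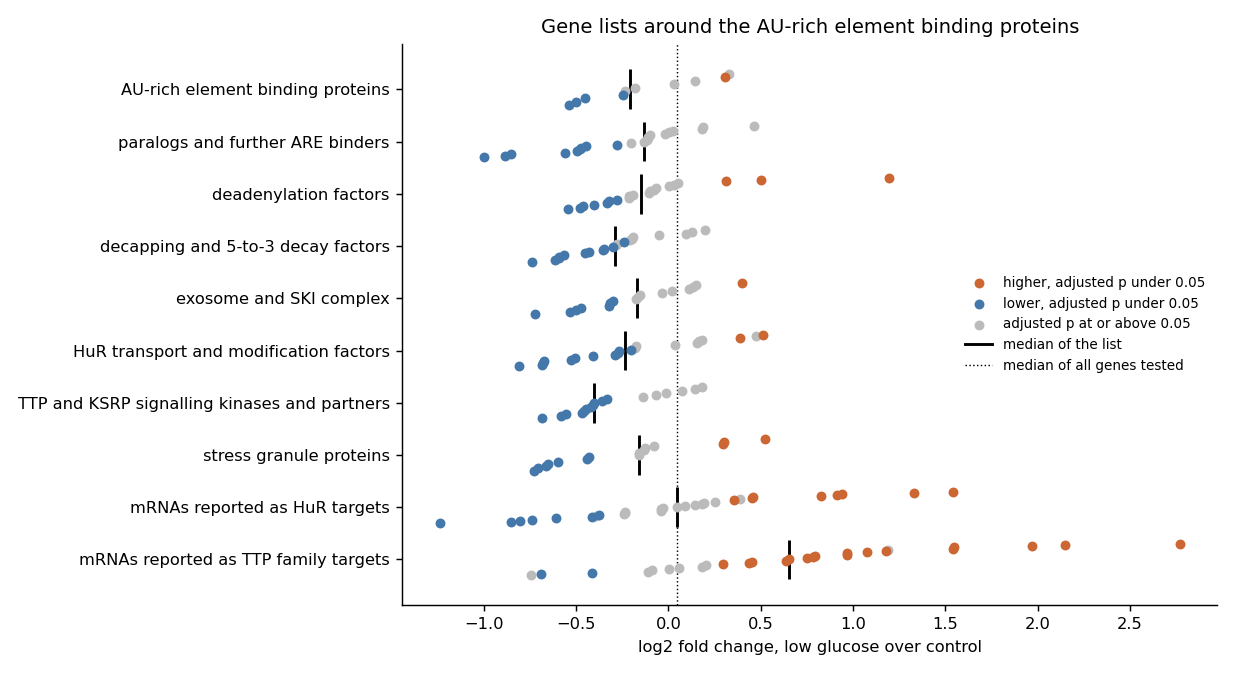
Log2 fold change in low glucose against control (x axis) of every tested gene in the 10 members and the 9 lists, 1 row per list. Genes that passed an adjusted p of 0.05 are orange (higher) or blue (lower), others grey, the vertical bar is the median of the list, the dotted line is the median of all genes tested, and the height within a row only separates the points. The TTP family targets lie mostly to the right of 0, with a median of 0.65, whereas the decay machinery and the kinases and partners of TTP and KSRP lie mostly to the left.

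Whether mRNAs with AU-rich elements differed as a class was examined over all 13667 tested protein-coding genes with an annotated 3′ UTR, of which 16.5% were higher and 22.2% lower. Over the number of pentamers the medians lay between −0.06 and 0.07, and the share of lower genes was smallest without ATTTA. None of these differences was tested. Without ATTTA (4011 genes) 18.1% were higher and 17.4% lower, with a median log2 fold change of 0.07. With 6 or more (3631 genes) 14.6% were higher and 23.6% lower, with a median of −0.06. The classes between had medians of −0.03 each. Scaling by library size moved the median of all genes from 0.05 to 0.13 and these medians with it, to 0.15 without ATTTA and 0.03 with 6 or more. 3′ UTR length rises with the number of pentamers, from a median of 360 bp without any to 3431 bp with 6 or more, and within groups of like 3′ UTR length the medians lay closer. Without ATTTA and with 3 or more they were 0.10 and 0.07 in 3′ UTRs of at most 684 bp, −0.01 and −0.03 between 684 and 2063 bp, and −0.04 and −0.06 in longer ones. In the same order, the shares that were lower were 15.3% and 18.5%, 22.6% and 24.4%, and 25.3% and 24.7%.

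With the nonamer present (1247 genes) 17.6% were higher and 19.5% lower, close to all genes with a 3′ UTR. The same 3 groups by 3′ UTR length, of equal size, were used here. In 3′ UTRs of at most 684 bp, 84 genes had the nonamer, of which 34.5% were higher and 10.7% lower (median 0.30), and among the 4473 without it 17.7% were higher and 17.0% lower with a median of 0.07. Between 684 and 2063 bp, 17.5% of 326 genes with the nonamer and 16.3% of 4229 without it were higher, and 18.7% and 24.7% were lower. In longer 3′ UTRs the shares that were higher were 16.0% of 837 and 15.0% of 3718, and the shares that were lower 20.7% and 26.3%. The share of lower genes was thus smaller with the nonamer in all 3 groups, while the share of higher genes differed by over 2 percentage points only in short 3′ UTRs. These differences were not tested. Only 4 of the 84 genes are on the list of TTP family targets, and of the other 80, counted after the values had been seen, 32.5% were higher and 11.2% lower with a median of 0.29.

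**Figure D5:**
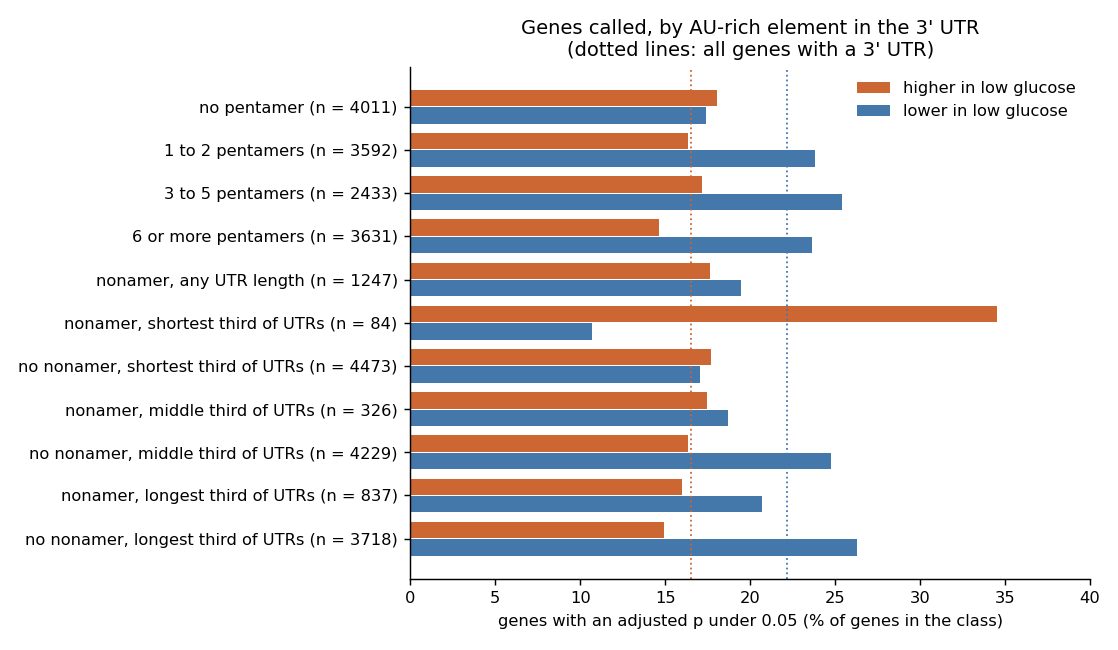
Percent of tested protein-coding genes that passed the test as higher or lower in low glucose (horizontal bars from 0), by number of ATTTA pentamers and by presence of TTATTTATT within 3 groups of 3′ UTR length, with dotted lines for all such genes. The bars of higher genes stand out for the 84 short 3′ UTRs with the nonamer, at 34.5%, and lie between 14.6% and 18.1% in the classes by number of pentamers.

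The target lists were also split by the nonamer, after the values had been seen and with no test of a difference. Among the tested TTP family targets, 12 carried it, of which 9 rose and none fell with limma (median 1.13), FOS being lower at an unadjusted p of 0.0247, and of the 15 without it 8 rose and 2 fell with a median of 0.30. Among the tested HuR targets, 10 carried it, of which 3 rose and 1 fell with a median of 0.19, and of the 19 without it 5 rose and 6 fell with a median of −0.04. Among the 10 members themselves, ELAVL1, whose 3′ UTR holds the nonamer, fell, and none of the 3 ZFP36 family members that hold it passed the test.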

How the data were processed

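The 10 members and the 9 gene lists around them were chosen with earlier results of these data known. According to the methods, the authors trimmed reads with Trim Galore and mapped them to hg38 with STAR 2.7.0e. The study's software list also holds RSEM. Whether RSEM made the deposited counts, the strand setting and the annotation are not given in the sources used here. Deposited was a signal per gene and library, namely counts that the authors had divided by a size factor of that library. In every library 100% of the values came out as whole reads (tolerance 0.001 reads), and these recovered reads were used for edgeR, DESeq2, RPKM and ratios.

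The main test was limma 3.58.1 (R 4.3.3, eBayes with trend) on log2(value + 1) of the 21101 genes whose mean value reached 1, fitted on the whole table, two-sided, with Benjamini-Hochberg adjustment and a threshold of 0.05. No batch is given in the labels, and nothing in them says that the 3 libraries of a condition are separate cultures, so p-values measure the spread between these libraries. The methods of the study call replicates biological. Beside the members, the 3 largest rises and 3 largest falls of each list with a mean of at least 20 are named, with IDH1 and the 3 genes most like ELAVL1 and ZFP36. A gene that the rule names is not reported here. CXCL8, MAPK14, FOS and the 3 paralogs of HuR are named outside that rule, after their values were seen. Alternatives were scaling by library size, TMM or quantiles, 2 filters, a pseudocount of 0.1, no variance trend, edgeR 4.0.16, DESeq2 1.42.0 and each library left out. On recovered reads edgeR called 6554 genes and DESeq2 5486, beside 6528 with limma. 3′ UTRs and sites came from Gencode v44 (MANE Select transcript where given), to which 99.5% of the gene identifiers matched. The scripts were first tested on simulated data. Tables and figures used Python 3.11.15, pandas 2.3.3 and matplotlib 3.10.9.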

Additional observations from a re-analysis of the deposited data

How the results depend on the processing

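ELAVL1, HNRNPD and KHSRP kept their direction and their adjusted p under 0.05 in all 9 alternatives on all libraries and all 6 that left out 1 library. Scaling by library size put ZFP36L1 past the threshold (0.23) and CELF1 below it (−0.16), and it moved the median log2 fold change of all genes to 0.13 from 0.05 and the split of calls to 3930 higher and 2645 lower from 3111 and 3417. Quantile normalization gave 0.33 for ZFP36L1, −0.0246 for CELF1 and −0.33 for YBX1, which passed, as did YBX1 with DESeq2 (−0.24). With library size and with quantile scaling 2 members were higher. Without a variance trend TIA1 (0.31) and CELF1 (−0.25) did not pass, 4090 genes were called (1991 lower), with 3 members, 0 of them higher, 5 deadenylation, 4 decapping, 2 exosome and 6 stress granule genes. Leaving out 1 library gave a log2 fold change of 0.12 to 0.19 for ZFP36L1, 0.19 to 0.51 for ZFP36, −0.0291 to 0.0921 for ZFP36L2, 0.26 to 0.36 for TIA1, −0.21 to −0.16 for TIAL1, −0.27 to −0.22 for CELF1 and −0.29 to −0.16 for YBX1. It gave 4298 to 7173 genes called (1921 to 3489 higher), 3 to 8 members (0 to 2 higher), 6 to 11 deadenylation, 5 to 15 decapping and 4 to 9 exosome genes. Without low glucose replicate 1 there were 4298 genes, 3 members, 5 decapping and 4 exosome factors; without replicate 2, 7 and 4 of these factors and 1973 higher genes; without the library of 13733477 reads, 3 members, 6 deadenylation, 6 decapping and 5 exosome factors and 2018 higher genes. Without the control library of 9741183 reads there were 6 decapping and 4 exosome factors, and without that of 10126218 reads 8 members.

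Scaling by library size reversed the medians of genes with 1 to 2 (0.0533), 3 to 5 (0.0479) and 6 or more ATTTA (0.0250), and gave 0.149 for none, 0.0851 for the nonamer, and 0.379 with and 0.147 without it in short 3′ UTRs. The median without ATTTA was 0.0141 with at least 10 reads in every library and 0.0172 with a mean of at least 20 (chosen after seeing the data). With 1 to 2 ATTTA it was −0.0617 and −0.0567 under these, −0.0144 with TMM, −0.0359 with quantiles and −0.00586 without a filter, and with 3 to 5 it was −0.0660 and −0.0662 under the same filters. In short 3′ UTRs the median with the nonamer was 0.22 with at least 10 reads, 0.24 with a mean of at least 20 and 0.22 with the longest annotated 3′ UTR, and without it 0.00994 and 0.0120 under the first 2. Leaving out 1 library gave 0.0432 to 0.108 without ATTTA, −0.0408 to −0.0110 with 1 to 2, and 0.24 to 0.31 for short 3′ UTRs with the nonamer. Over the chosen transcript's length, control RPKM were 31.6 for ELAVL1, 107 for HNRNPD, 183 for KHSRP, 75.8 for ZFP36L1, 9.98 for TIA1, 30.9 for TIAL1, 22.0 for CELF1 and 828 for YBX1. Of 600 repeats for the 40 named genes other than the members, 24 lost the call and none turned. No paired analysis was possible because the labels number only 2 of the columns, both of low glucose. ZFP36 rests on 37 to 85 reads per library, which limits its precision.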
